A study of Mus musculus with 32 samples.

Results

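The step from 4 to 6 mM hydrazine at the end of a 4 h exposure was followed across all genes with enough counts. The cells were FE1, described as a mouse lung epithelial line derived from a transgenic mutation-reporter animal. Hydrazine is a small reactive base that reacts with carbonyl groups and is a known mutagen. The members were chosen by library name: the 3 libraries of 6 mM (a to c) were set against the 5 libraries of 4 mM (a to e), 8 of the 32 libraries of the series. By the labels both groups were the same line, exposed for 4 h and collected at once, and dose was the difference named. Replicate letters d and e occur only at 4 mM at 4 h. The labels read here name no plate, preparation or run, so it is not known whether these were equal. The vehicle at 4 h (0 mM), 1 mM and 10 mM groups of the same time, and the 6 mM and 4 mM groups collected after a further 20 h without the compound, held 3 libraries each and are used for context. Poly-A RNA was sequenced from total RNA of whole cultures. Of 49585 entries in the deposited count table, 13258 had enough counts to be tested. Nothing in the labels says that replicates were separate cultures, so p-values measure how far these libraries differ, and that spread may be technical.

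Total counts ran from 11606908 to 13321157 at 6 mM and from 11353049 to 17086663 at 4 mM, and the mean totals gave an exact two-sided permutation p of 0.161 (56 splits, smallest possible p 0.0179). The scaling factor per library (TMM) averaged 0.987 ± 0.0166 at 6 mM and 1.02 ± 0.0108 at 4 mM (SD, n = 3 and 5, exact permutation p = 0.0179). On the first principal component of the libraries at 4 h, which carried 33.3% of the variance, those of 6 mM stood at 7.13 to 11.8 and those of 4 mM at -10.6 to -6.87. Library c of 6 mM after washout stood apart: its chi-square per degree of freedom against its replicates was 43.1 and 43.9, where other replicate pairs of the 4 groups at 6 and 4 mM lay between 2.04 and 6.37. It is no part of the comparison at 4 h, but it enters the shared estimate of the spread, so counts are given with and without it. The cell type label was checked against markers. Of 17 lung epithelial markers 5 passed the filter on low counts, and Sftpc, Nkx2-1, Sftpa1 and Cldn4 were at 0 in both groups. All 16 mesenchymal markers passed, 0 of 8 endothelial and 2 of 10 leukocyte markers did, and Ptprc, Adgre1 and Marco were at 0 in both. The summed level of the epithelial markers was 39.1 to 41.1 CPM (counts scaled to library size) at 6 mM and 44.4 to 50.9 CPM at 4 mM, and that of the mesenchymal markers 22743 to 24425 CPM at 6 mM and 21717 to 23462 CPM at 4 mM. Of these markers 1 was called between the doses, Foxa2, an endoderm transcription factor, which averaged 27.7 ± 1.13 CPM at 6 mM and 36.1 ± 1.88 CPM at 4 mM (-0.38 on the log2 scale, adjusted p = 0.000296). Foxa2 held most of the summed epithelial level at both doses. These levels do not bear out the epithelial name, which is that of the label. The part of these markers in the results was not tested.

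Several stress programmes meet in this comparison. After DNA damage the transcription factor p53 switches on genes for arrest, repair and death, among them its own inhibitor Mdm2, while E2F factors drive the genes of S phase. Lysosomal genes are under TFEB and TFE3, which bind an E-box hexamer and are held in the cytoplasm when amino acid signalling through the Rag GTPases and folliculin is intact. ATF4 drives the amino acid and stress genes of the integrated stress response, and NF-kB and AP-1 drive chemokines and immediate early genes.

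Between 6 and 4 mM, 1069 genes were called, 8.06% of those tested, with 560 higher (4.22%) and 509 lower (3.84%) at 6 mM. In 9.13% of tested genes all 3 libraries of 6 mM lay above all 5 of 4 mM, and in 8.39% all lay below. A gene was called at an adjusted p under 0.05. Every adjusted p here comes from the quasi-likelihood test of edgeR and was adjusted by Benjamini-Hochberg over all tested genes. The changes were mostly small: the median size of the log2 fold change among called genes was 0.33, 95 were at least 1.5-fold higher and 65 at least 1.5-fold lower, and 21 and 16 reached 2-fold. Without library c of 6 mM after washout 1720 genes were called (12.8% of 13427; 928 higher, 6.91%, and 792 lower, 5.90%), among them all 1069. Leaving out library a or c of 6 mM at 4 h gave 664 and 651. Scaled by library totals alone, which put the median log2 fold change of all genes at -0.05, 382 genes were higher and 872 lower, so the balance between directions depended on scaling.

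The genes raised most at 6 mM included p53 targets. Of 41 tested targets 22 were called higher and 1 lower, against 4.22% and 3.84% of all genes, and their median log2 fold change was 0.24 against 0.00 for all genes. As for every list here, these counts are a description, with no test of the list. Mdm2 (chr10:117688875-117710758, minus strand), the ubiquitin ligase that restrains p53, had 914, 913 and 854 CPM in libraries a to c at 6 mM, against 401, 351, 365, 352 and 349 CPM in libraries a to e at 4 mM. All 3 libraries at 6 mM lay above all 5 at 4 mM, and the log2 fold change was 1.30 ± 0.05 (SE, adjusted p = 3.94e-18). Btg2, an antiproliferative gene, had 75.7, 80.2 and 74.4 CPM at 6 mM, against 40.7, 30.8, 38.5, 35.8 and 36.8 CPM at 4 mM (log2 change 1.07 ± 0.08, adjusted p = 6.90e-10). Trp53inp1, a stress-induced partner of p53 with a role in autophagy, had 179, 247 and 181 CPM at 6 mM, against 95.6, 92.5, 85.9, 111 and 105 CPM at 4 mM (1.04 ± 0.14, adjusted p = 2.67e-05). Its libraries did not overlap, though library b of 6 mM stood above its replicates.

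Among p53 targets of the death machinery, Bbc3, which encodes the BH3-only protein PUMA, had 15.6, 11.4 and 14.6 CPM at 6 mM, against 9.95, 6.69, 7.81, 6.98 and 6.91 CPM at 4 mM (log2 change 0.86 ± 0.14, adjusted p = 0.000146). Fas, a death receptor, averaged 38.9 CPM at 6 mM and 28.8 CPM at 4 mM (0.43 ± 0.08, adjusted p = 0.000350). The list of BCL2 family and apoptosis genes shares Bbc3, Fas, Tnfrsf10b and Apaf1 with the p53 list. It had 6 of 28 tested members higher and none lower, against 4.22% and 3.84% of all genes. Cdkn1a, which encodes the kinase inhibitor p21, had 259, 261 and 246 CPM at 6 mM, against 191, 181, 182, 188 and 177 CPM at 4 mM (0.47 ± 0.05, adjusted p = 1.19e-07). Ercc5 and Gtf2h1, of nucleotide excision repair, were both 0.34 higher on the log2 scale (adjusted p = 7.41e-05 and 0.000339). The target that fell was Tigar, a fructose bisphosphatase, with 10.2 ± 0.580 CPM at 6 mM and 14.6 ± 1.26 CPM at 4 mM (log2 change -0.52). It was named after its values were seen.

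The p53 targets differed in where on the dose range they moved. Btg2 averaged 36.6, 32.7, 36.5, 76.8 and 145 CPM at 0, 1, 4, 6 and 10 mM, so the mean at 4 mM was that of the vehicle. Bbc3 averaged 7.07, 6.26, 7.67, 13.9 and 35.9 CPM at those doses. Cdkn1a, by contrast, averaged 131, 129, 184, 255 and 280 CPM, and its mean at 4 mM was already above the vehicle (log2 fold change 0.48, adjusted p = 4.45e-09). The comparisons of 4 and of 6 mM with vehicle use the same libraries as the comparison of 6 with 4 mM, and these levels are given side by side only.

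**Figure D1:**
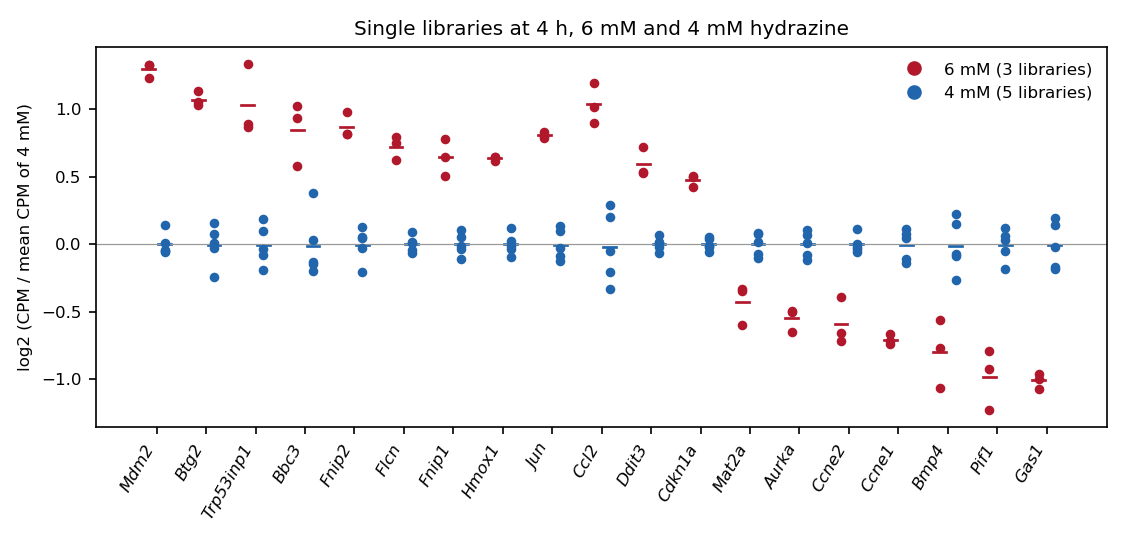
CPM in each library at 4 h relative to the mean of 4 mM (log2, y axis) for 19 genes (x axis), with 3 libraries of 6 mM in red left of 5 libraries of 4 mM in blue; short bars are means of the log2 values. In each gene shown all red points lie on one side of all blue points, from Mdm2, with a log2 fold change of 1.30, to Gas1, with -1.01.

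Many lysosomal and autophagy genes were called higher, most by small amounts. Of 50 tested members 23 were higher at 6 mM and none lower, against 4.22% and 3.84% of all genes, and 45 of 50 fold changes were positive (median 0.18). The largest were the folliculin complex genes. Fnip2 had 46.3, 52.0 and 46.3 CPM at 6 mM, against 27.2, 27.2, 28.6, 22.7 and 25.8 CPM at 4 mM (log2 change 0.88 ± 0.11, adjusted p = 2.61e-06). Flcn (chr11:59791408-59810016, minus strand), which encodes folliculin, an activator of GTP hydrolysis by RagC, had 80.4, 90.3 and 87.6 CPM at 6 mM, against 55.4, 52.4, 52.7, 49.7 and 50.5 CPM at 4 mM (0.72 ± 0.06, adjusted p = 1.04e-08). Fnip1, its partner, had 111, 134 and 123 CPM at 6 mM, against 76.2, 77.3, 72.6, 81.3 and 84.0 CPM at 4 mM (0.65 ± 0.08, adjusted p = 2.61e-06). In none of these 3 genes did the libraries of the doses overlap.

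Other called members covered the parts of the lysosome. Ctsa, Ctsb and Ctsl of the cathepsins, Gaa, Hexa, Naglu and Neu1 of the glycosidases, Atp6v0d1, Atp6v1a, Atp6v1b2, Atp6v1c1 and Atp6v1h of the proton pump, and the membrane proteins Lamp1 and Lamp2 were all called higher. Rragc, which encodes the GTPase RagC, was 0.26 higher on the log2 scale, and Neu1, the lysosomal sialidase, averaged 19.2 ± 2.17 CPM at 6 mM and 13.5 ± 0.657 CPM at 4 mM (0.50 ± 0.09). Neu1 and Rragc were named after their values were seen. Sqstm1, the autophagy receptor p62, had 536, 544 and 508 CPM at 6 mM, against 384, 374, 384, 399 and 372 CPM at 4 mM (0.47 ± 0.06, adjusted p = 8.13e-06). Without library c of 6 mM after washout 28 members were higher and 1 lower, without library c of 6 mM at 4 h 14 were higher, and 16 were with library totals alone. The mTORC1 brake genes had 5 of 16 higher and 1 lower, against 4.22% and 3.84% of all genes. Ddit4, an inhibitor of mTORC1 signalling, had 74.6, 66.5 and 70.9 CPM at 6 mM, against 51.5, 48.4, 47.5, 44.1 and 47.3 CPM at 4 mM (0.57 ± 0.10, adjusted p = 0.000237). Tsc1, a subunit of the complex that inhibits Rheb, was 0.47 higher (adjusted p = 0.00104).

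The E-box hexamer CACGTG, searched on both strands (the word is its own reverse complement), was found in the 250 bases before the start of 7 of 17 called lysosome and autophagy genes that have a promoter in the RefSeq table (41.2%) and in 12 of 38 tested ones (31.6%). Among all called genes it stood before 74 of 437 of those higher at 6 mM (16.9%) and 20 of 400 of those lower (5%), where 814 of 9615 tested genes (8.47%) and 1634 of all 27025 promoters (6.05%) had it. In the circadian list the hexamer stood before 3 of 8 called genes (37.5%) and 5 of 15 tested ones (33.3%). This motif was chosen after results were seen and its shares were not tested. 4 of the called holders are shown, as members of the folliculin, Rag GTPase, proton pump and hydrolase groups above, with the hexamer in capitals (RefSeq, GRCm38.p6, gene's strand, the first of the 6 capitals at -75, -112, -131 and -140 from the gene start). They come from chr11:54437929-54438178 (+ strand), chr4:123917183-123917432 (+ strand), chr16:44139260-44139509 (- strand) and chr11:119267713-119267962 (+ strand).
Fnip1: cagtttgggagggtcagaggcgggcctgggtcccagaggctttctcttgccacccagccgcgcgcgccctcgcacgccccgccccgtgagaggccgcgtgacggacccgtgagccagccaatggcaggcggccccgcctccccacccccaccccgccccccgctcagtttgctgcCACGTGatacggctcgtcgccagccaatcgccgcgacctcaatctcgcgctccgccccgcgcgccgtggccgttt
Rragc: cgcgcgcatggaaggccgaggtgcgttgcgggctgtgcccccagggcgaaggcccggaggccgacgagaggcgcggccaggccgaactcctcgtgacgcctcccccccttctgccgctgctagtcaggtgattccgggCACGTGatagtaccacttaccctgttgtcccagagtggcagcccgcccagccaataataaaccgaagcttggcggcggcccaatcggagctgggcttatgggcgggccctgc
Atp6v1a: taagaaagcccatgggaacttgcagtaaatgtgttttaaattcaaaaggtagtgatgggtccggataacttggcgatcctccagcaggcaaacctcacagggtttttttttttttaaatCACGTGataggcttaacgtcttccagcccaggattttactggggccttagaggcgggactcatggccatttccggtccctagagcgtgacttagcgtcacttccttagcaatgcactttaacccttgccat
Gaa: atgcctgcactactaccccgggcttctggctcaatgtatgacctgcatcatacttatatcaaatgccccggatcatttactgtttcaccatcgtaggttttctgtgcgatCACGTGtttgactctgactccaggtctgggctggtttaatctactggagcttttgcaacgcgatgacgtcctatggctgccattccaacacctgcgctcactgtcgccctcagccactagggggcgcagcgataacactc
Flcn, Fnip2 and Neu1 were called without being among the holders, and Ctsd, Glb1, Mcoln1, Atg5 and Atg7 held the word without being called. Of 23 called members 17 had a promoter to search, so a gene outside the holders may lack a promoter sequence rather than the word.

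**Figure D2:**
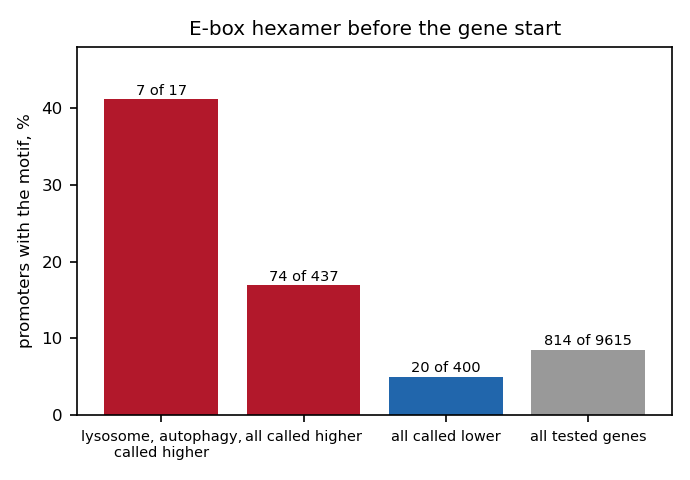
Share of promoters (y axis, %) that hold the E-box hexamer in the 250 bases before the gene start, for 4 sets of genes (x axis), with the counts above each bar. The share was 41.2% in called lysosome and autophagy genes, 16.9% in all genes higher at 6 mM, 5% in all genes lower at 6 mM and 8.47% in all tested genes.

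Part of the NF-kB and immediate early lists was called higher at 6 mM. Of 25 tested NF-kB targets 9 were higher and 1, Csf1, lower (median 0.20), against 4.22% and 3.84% of all genes. Ccl2, the chemokine MCP-1 (chr11:82035571-82037453, plus strand), had 38.1, 35.2 and 43.1 CPM at 6 mM, against 23.1, 15.0, 21.7, 18.2 and 16.4 CPM at 4 mM (1.05 ± 0.14, adjusted p = 1.24e-05). Its neighbour Ccl7 had 17.7, 18.2 and 24.4 CPM at 6 mM, against 11.5, 8.61, 10.8, 10.5 and 9.40 CPM at 4 mM (0.99 ± 0.17, adjusted p = 0.000219). The adhesion molecule Icam1 had 5.42, 5.42 and 5.04 CPM at 6 mM, against 3, 2.83, 2.52, 2.66 and 3.06 CPM at 4 mM (0.91 ± 0.17, adjusted p = 0.000569). Nfkbia, the inhibitor that NF-kB itself induces, averaged 43.7 ± 2.94 CPM at 6 mM and 25.3 ± 1.22 CPM at 4 mM (0.79 ± 0.08). It was named after its values were seen.

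Among 30 tested immediate early genes 10 were higher and none lower (median 0.27), against 4.22% and 3.84% of all genes. Jun, a subunit of AP-1, had 82.6, 85.2 and 83.5 CPM at 6 mM, against 52.5, 43.9, 45.1, 46.9 and 51.2 CPM at 4 mM (0.80 ± 0.10, adjusted p = 2.37e-06). Atf3, a stress-induced factor that the ATF4 list also holds, had 23.9, 27.3 and 24.1 CPM at 6 mM, against 11.6, 11.5, 10.7, 12.1 and 12.3 CPM at 4 mM (1.10 ± 0.26, adjusted p = 0.00738). In the vehicle Atf3 averaged 14.2 ± 10.0 CPM, above its mean at 4 mM, and Jun 28.1 ± 7.10 CPM, below its mean at 4 mM. Fos, the classical partner of Jun, had 0.991 to 2.40 CPM at 6 mM and 0.620 to 1.56 CPM at 4 mM, and did not pass the test (0.72 ± 0.36, adjusted p = 0.248). Of 20 tested TGF-beta and BMP feedback genes 6 were higher and 1, Bmp4, lower, against 4.22% and 3.84% of all genes, and 3 were higher without library c of 6 mM at 4 h. Smurf1, a ubiquitin ligase that acts on SMAD proteins, was 0.52 higher on the log2 scale (adjusted p = 6.46e-05). Among matrix genes, Mmp13, a collagenase, had 24.6, 17.6 and 32.2 CPM at 6 mM, against 17.8, 9.10, 17.3, 11.4 and 10.5 CPM at 4 mM, and the groups overlapped (0.92 ± 0.28, adjusted p = 0.0398). Of 30 tested matrix genes 5 were higher, where 4.22% of all genes were; leaving out library c of 6 mM at 4 h left 1, and library b, d or e of 4 mM at 4 h left 3.

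ATF4 targets were called in part. Of 44 tested ATF4 targets 9 were higher and none lower, against 4.22% and 3.84% of all genes, and the median fold change was 0.06. Ddit3, which encodes the pro-apoptotic factor CHOP, had 144, 163 and 142 CPM at 6 mM, against 99.9, 97.5, 94.8, 104 and 99.5 CPM at 4 mM (0.59 ± 0.12, adjusted p = 0.00114). Gdf15, a stress cytokine, had 2.56, 2.84 and 2.81 CPM at 6 mM, against 1.28, 1.10, 1.04, 0.865 and 1.13 CPM at 4 mM (1.33 ± 0.25, adjusted p = 0.000516), and Ppp1r15a, the stress-induced regulator of eIF2 dephosphorylation, was 0.56 higher (adjusted p = 0.000561). Atf4 itself averaged 691 ± 28.3 CPM at 6 mM and 654 ± 30.8 CPM at 4 mM, with a 95% interval of the log2 difference from -0.07 to 0.23 (adjusted p = 0.583). Trib3, a pseudokinase and ATF4 target, had 207, 206 and 207 CPM at 6 mM, against 188, 192, 200, 196 and 198 CPM at 4 mM. Its 3 libraries lay above all 5, yet the interval ran from -0.20 to 0.37 and the test was not passed (adjusted p = 0.789). By dose, Atf4 averaged 333, 372, 654, 691 and 576 CPM, and Trib3 46.1, 67.3, 195, 207 and 133 CPM, at 0, 1, 4, 6 and 10 mM.

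**Figure D3:**
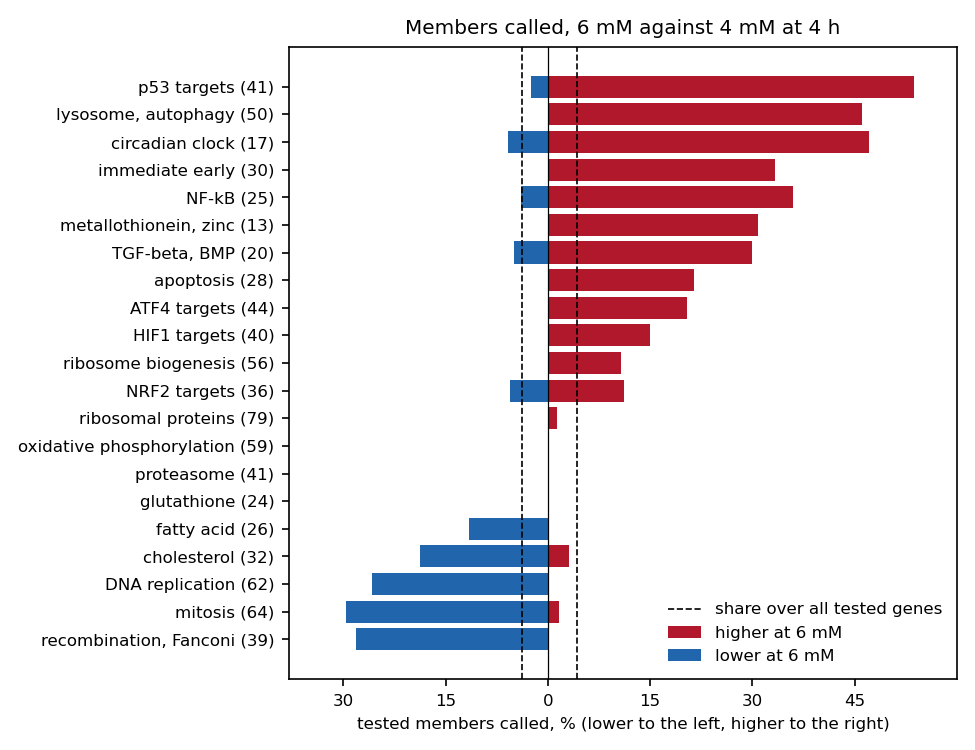
Share of tested members called (x axis, %) in 21 gene lists (y axis, number tested in brackets), higher at 6 mM in red to the right and lower at 6 mM in blue to the left; dashed lines mark the shares over all tested genes, 4.22% higher and 3.84% lower. The p53, circadian and lysosome lists reach furthest right, and the mitosis, recombination and DNA replication lists furthest left.

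Of 17 tested genes of the circadian clock 8 were higher and 1 lower (median 0.30), against 4.22% and 3.84% of all genes. Those higher included Nr1d1, the repressor Rev-erb alpha, with 24.0, 22.0 and 20.5 CPM at 6 mM, against 13.1, 14.4, 15.6, 12.7 and 13 CPM at 4 mM (0.69 ± 0.10, adjusted p = 3.32e-05). Rora, the activator that binds the same elements, averaged 11.6 ± 2.28 CPM at 6 mM and 6.36 ± 0.635 CPM at 4 mM (0.86 ± 0.20, adjusted p = 0.00462). Without library b of 6 mM at 4 h 4 members were higher. Hmox1, heme oxygenase 1, had 234, 234 and 230 CPM at 6 mM, against 146, 152, 140, 163 and 148 CPM at 4 mM (0.63 ± 0.05, adjusted p = 3.69e-09). NRF2 targets, of which it is one, had 4 of 36 higher and 2 lower, where 4.22% of all genes were higher and 3.84% lower, and in glutathione genes (24 tested) none was called, where 8.06% of all genes were. Mt1 and Mt2, the metallothioneins, were 0.61 and 0.70 higher (adjusted p = 0.0370 and 0.0445), a call that neither kept with library totals alone. Of 40 HIF1 targets 6 were higher and none lower, against the same 4.22% and 3.84%, with Hk2, a hexokinase, 0.61 higher (adjusted p = 0.00721), while Vegfa, the vascular growth factor, averaged 86.2 ± 5.66 CPM at 6 mM and 88.5 ± 4.82 CPM at 4 mM (95% interval of the log2 difference -0.18 to 0.10, adjusted p = 0.812).

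Part of the DNA replication, recombination and mitosis lists was called lower at 6 mM, and most of their members were not called. Of 62 DNA replication genes 16 were lower and none higher (median -0.12), against 3.84% and 4.22% of all genes. Ccne1, cyclin E1 of S phase entry (chr7:38097984-38107534, minus strand), had 15.8, 16.6 and 16 CPM at 6 mM, against 28.4, 27.7, 27.3, 24.5 and 23.9 CPM at 4 mM (log2 change -0.71 ± 0.09, adjusted p = 3.09e-06). Ccne2, cyclin E2, had 31.7, 33.0 and 39.8 CPM at 6 mM, against 50.9, 51.3, 56.3, 52.3 and 49.99 CPM at 4 mM (-0.58 ± 0.08, adjusted p = 1.59e-05). Cdc6, a licensing factor, had 46, 47 and 45.8 CPM at 6 mM, against 65.0, 61.9, 67.4, 61.8 and 63.0 CPM at 4 mM (-0.46 ± 0.06, adjusted p = 7.33e-06). In all 3 genes the doses were separate. The list had 21 lower and 1 higher without library c of 6 mM after washout, 10 lower without library a of 6 mM at 4 h, and 26 lower with library totals alone.

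Homologous recombination and Fanconi genes had 11 of 39 lower and none higher (median -0.19), against 3.84% and 4.22% of all genes. Exo1, a resection nuclease, had 29.1, 26.8 and 27.5 CPM at 6 mM, against 38.9, 40.3, 39.7, 38.7 and 39.5 CPM at 4 mM (-0.50 ± 0.06, adjusted p = 4.72e-06). Dna2, a nuclease and helicase of the same step, had 16, 18.5 and 18.4 CPM at 6 mM, against 27.4, 27.2, 26.1, 24.8 and 26.5 CPM at 4 mM (-0.58 ± 0.10, adjusted p = 0.000216). Brca1 and Xrcc2, also of recombination, were 0.34 and 0.45 lower on the log2 scale and were named after their values were seen. Without library c of 6 mM after washout the count was 18, without library a of 6 mM at 4 h it was 6, and with library totals alone 17. Some of these genes stood above the vehicle at 4 mM: Dna2 averaged 14.3, 24.9, 26.4, 17.6 and 9.77 CPM, and Cdc6 48.1, 52.9, 63.8, 46.2 and 27.8 CPM, at 0, 1, 4, 6 and 10 mM.

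**Figure D4:**
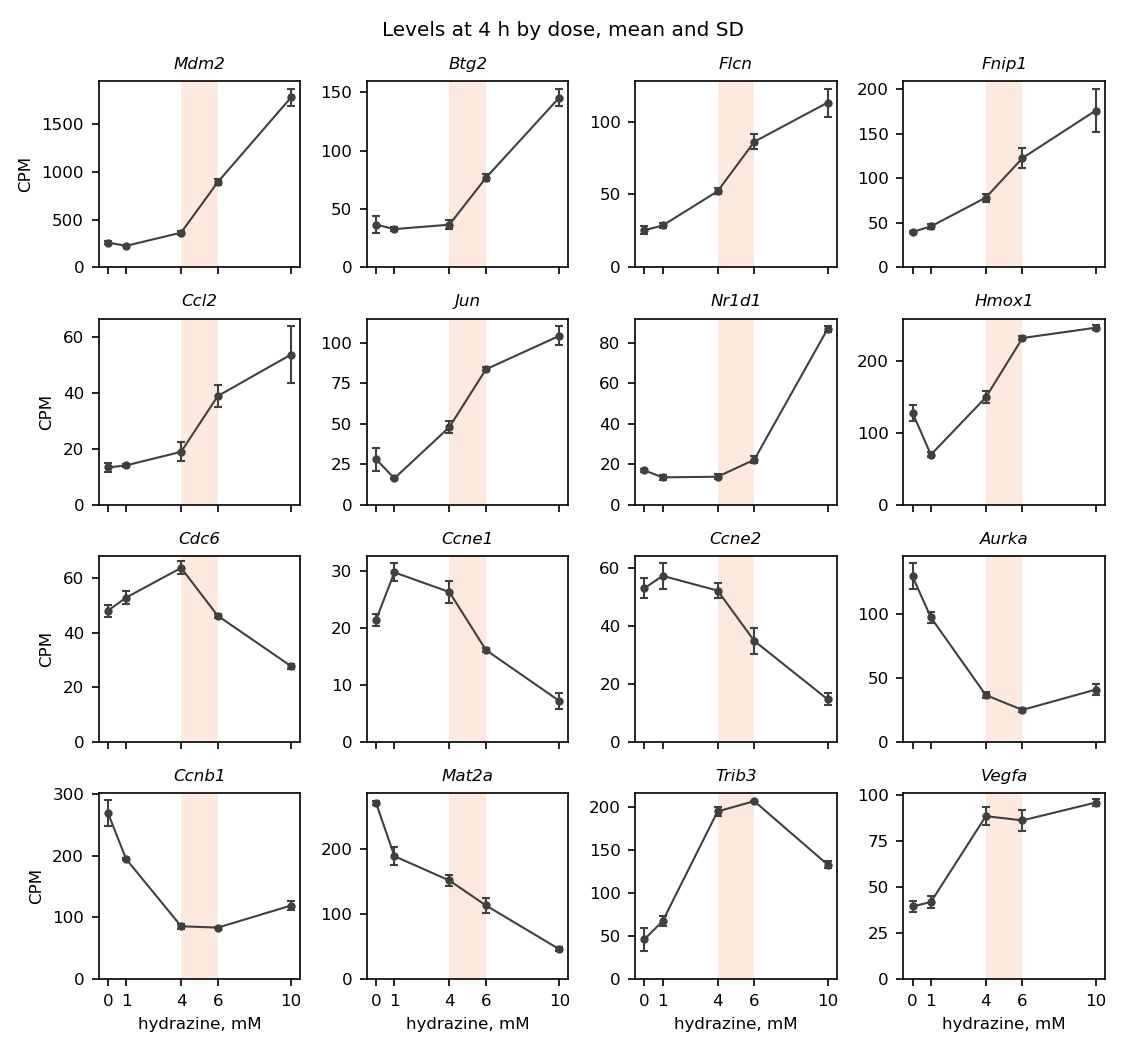
Mean CPM and SD (y axis, from 0) at 0, 1, 4, 6 and 10 mM hydrazine (x axis) at 4 h for 16 genes, with 3 libraries a point (5 at 4 mM); the shaded band is the step from 4 to 6 mM. Mdm2, Btg2, Flcn, Fnip1, Ccl2, Jun, Nr1d1 and Hmox1 stand higher at 6 than at 4 mM, Cdc6, Ccne1, Ccne2, Aurka and Mat2a lower, and Ccnb1, Trib3 and Vegfa were not called across the step.

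All but 1 of the 64 tested mitotic genes were called below the vehicle at 6 mM, as were 64 at 4 mM (19.6% and 19.1% of all genes were). Between the doses, 19 were lower and 1, Psrc1, higher at 6 mM (median -0.14), against 3.84% and 4.22% of all genes. Aurka, the centrosomal kinase, had 23.2, 25.7 and 25.9 CPM at 6 mM, against 33.6, 36.8, 34.5, 39.3 and 38.3 CPM at 4 mM (-0.55 ± 0.08, adjusted p = 1.22e-05). Sgo2a, a protector of cohesin, had 30.9, 35.5 and 33.2 CPM at 6 mM, against 43.9, 52.7, 52.9, 58.0 and 59.7 CPM at 4 mM (-0.69 ± 0.10, adjusted p = 1.40e-05). Plk1, the polo-like kinase, had 40.4, 31.5 and 33.4 CPM at 6 mM, against 34.2, 33.6, 36.5, 32.3 and 35.2 CPM at 4 mM, and the groups overlapped (0.03 ± 0.07, adjusted p = 0.838). Ccnb1, cyclin B1, averaged 83.4 ± 1.01 CPM at 6 mM and 85.6 ± 4.00 CPM at 4 mM (95% interval -0.15 to 0.07, adjusted p = 0.762). Plk1 averaged 160, 94.1, 34.3, 35.1 and 90.0 CPM at 0, 1, 4, 6 and 10 mM, and Aurka 129, 97.2, 36.5, 24.9 and 40.9 CPM. Pif1, a DNA helicase outside the mitosis list, had 2.48, 3.36 and 3.06 CPM at 6 mM, against 6.31, 6.06, 5.12, 5.62 and 5.94 CPM at 4 mM (-0.98 ± 0.12, adjusted p = 2.77e-06), and averaged 40.2 CPM in the vehicle.

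Without library c of 6 mM after washout 26 mitotic genes were lower, as they were with library totals alone, and 13 without library a of 6 mM at 4 h. In bulk RNA, fewer cells in a phase and less RNA per cell cannot be told apart.

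Among the 15 largest falls at 6 mM under the rule for named genes were Gas1, Bmp4, Hand2 and Adamts5. Gas1, a membrane protein of growth arrest and hedgehog signalling, had 5.97, 6.28 and 6.44 CPM at 6 mM, against 13.8, 11, 12.3, 14.3 and 11.2 CPM at 4 mM (-1.01 ± 0.22, adjusted p = 0.00455). Bmp4, a secreted growth factor, had 18.2, 21.1 and 14.9 CPM at 6 mM, against 29.3, 29.6, 25.9, 34.4 and 36.4 CPM at 4 mM (-0.79 ± 0.10, adjusted p = 6.11e-06). Hand2, a transcription factor of heart and limb, had 12.9, 9.21 and 10.7 CPM at 6 mM, against 18.1, 18.9, 19.0, 21.6 and 19.9 CPM at 4 mM (-0.83 ± 0.13, adjusted p = 4.26e-05). Adamts5, an aggrecan-cleaving protease, averaged 121 ± 11.7 CPM at 6 mM and 208 ± 13.7 CPM at 4 mM (-0.78 ± 0.09, adjusted p = 1.27e-06). The rule for the 15 largest falls admitted only genes in which all libraries of 6 mM lay below all of 4 mM. The separation in these 4 genes is therefore a condition of their choice.

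Cholesterol genes had 6 of 32 lower and 1, Soat1, higher (median -0.16), against 3.84% and 4.22% of all genes. Idi1, isopentenyl diphosphate isomerase, had 235, 274 and 270 CPM at 6 mM, against 317, 319, 356, 329 and 317 CPM at 4 mM (-0.33 ± 0.06, adjusted p = 0.000745). Hmgcs1, of the first steps of the pathway, had 638, 635 and 645 CPM at 6 mM, against 738, 699, 772, 718 and 693 CPM at 4 mM; the groups did not overlap, but the test was not passed (-0.18 ± 0.06, adjusted p = 0.0703). With library c of the 6 mM washout group left out, Hmgcs1 was called at 4 h (adjusted p = 0.0264), as it was with DESeq2 and with library totals alone. The count of lower genes was 15 without library c of 6 mM after washout, 3 without library a of 6 mM at 4 h and 12 with library totals alone. Of 26 fatty acid genes 3 were lower (Fasn, Acly and Elovl6), where 3.84% of all genes were, and 1 was without library a, b or c of 4 mM or without any 1 library of 6 mM at 4 h. Of 39 methionine and one-carbon genes 3 were higher and 2 lower (median 0.02), against 4.22% and 3.84% of all genes. In this list 1 was higher without library a or c of 6 mM at 4 h. Mat2a, which makes S-adenosylmethionine, had 100, 119 and 121 CPM at 6 mM, against 160, 153, 161, 142 and 144 CPM at 4 mM (-0.42 ± 0.06, adjusted p = 1.59e-05). Amd1, of polyamine synthesis, averaged 106 CPM at 6 mM and 139 CPM at 4 mM (-0.40 ± 0.06, adjusted p = 9.44e-05), while Azin1, the antizyme inhibitor that protects ornithine decarboxylase, was 0.39 higher (adjusted p = 4.97e-05).

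Of 56 ribosome biogenesis genes 6 were higher and none lower, and of 42 translation initiation genes 4 were higher and none lower, where 4.22% of all genes were higher. Without library c of 6 mM after washout 9 were higher in each; without library a or c of 6 mM at 4 h, or with library totals alone, 1 ribosome biogenesis gene was, and 3 were without library b or d of 4 mM at 4 h. Of the translation initiation genes 2 were higher without library b of 6 mM at 4 h and 1 without library c. Of 79 ribosomal protein genes 77 had positive fold changes (median 0.13) but 1, Rpl15, was called, where 8.06% of all genes were. Without library c of 6 mM after washout 26 were, against 12.8% of all genes. Among genes of nuclear oxidative phosphorylation (59 tested), the proteasome (41) and tubulins (14) none was called in either direction, where 8.06% of all genes were.

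The comparison of 10 mM with vehicle shares no library with that of 6 and 4 mM. There 6640 of 13258 genes were called (50.1%), 3445 higher (26.0%) and 3195 lower (24.1%). Of the 560 genes higher at 6 than at 4 mM, 510 (91.1%) were also higher at 10 mM, which is 14.8% of the 3445, and 446 of 509 lower genes (87.6%) were also lower, 14.0% of the 3195. Among genes not called between 6 and 4 mM, 24.0% were higher and 22.5% lower at 10 mM. Without library c of 6 mM after washout these shares were 90.1% and 85.5%. Opposite calls were few, 4 and 5, and are named after their values were seen. Rhoj, H1f0, Rnmt and Csnk1g1 were higher at 6 than at 4 mM and lower at 10 mM than in the vehicle. Snx18, Tymp, Adamts1, Cdc7 and Ezh2 were the reverse. Tymp averaged 0.0517 CPM at 6 mM and 0.773 CPM at 4 mM, under the limit of 5 CPM for named genes. In Rhoj and Rnmt the libraries of 6 and 4 mM overlapped. Between 6 and 4 mM the adjusted p of Rhoj, Snx18 and Rnmt was 0.0437, 0.0459 and 0.0496. H1f0, a linker histone, averaged 244, 142, 82.6, 98.0 and 193 CPM at 0, 1, 4, 6 and 10 mM, lowest at 4 mM. Against 1 mM, which also shares no library, the order was different: of the 560 higher genes 34 were higher and 100 lower at 1 mM than in the vehicle, and of the 509 lower genes 76 were higher and 58 lower, where 594 of all genes were higher (4.48%) and 711 lower (5.36%).

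**Figure D5:**
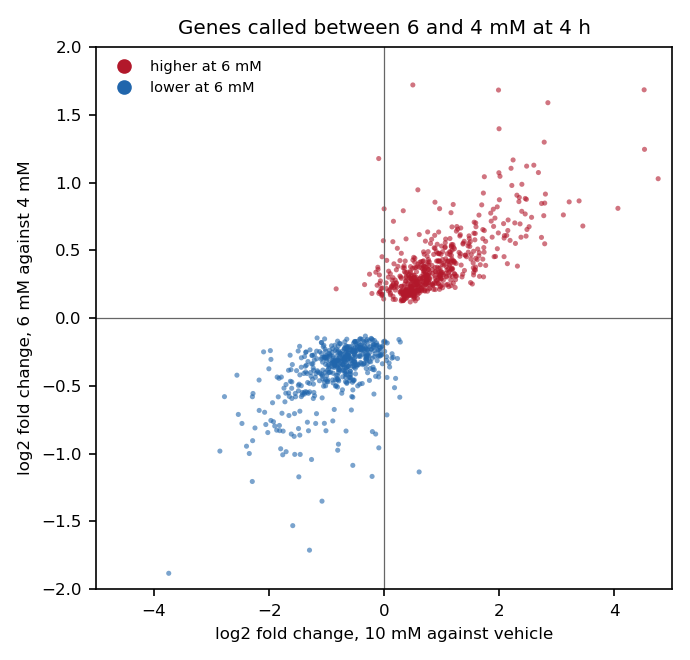
Log2 fold change of 6 mM against 4 mM (y axis) and of 10 mM against vehicle (x axis) at 4 h for the 1069 genes called between 6 and 4 mM, red where higher and blue where lower at 6 mM; 7 genes lie outside the axes. These comparisons share no library, and 510 red and 446 blue genes were also called in that direction at 10 mM.

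After 20 h without hydrazine the dose step had 3 called genes (0.0226% of 13258), of which 1 was called at 4 h; the unadjusted p was under 0.05 for 1719, DESeq2 called 15, and 2 were called without library c of 6 mM after washout. Ces2e, a carboxylesterase, averaged 43.7 ± 3.64 CPM at 6 mM and 23.0 ± 2.10 CPM at 4 mM after washout (log2 change 0.93 ± 0.10, adjusted p = 7.57e-06), and 11.3 ± 1.93 CPM at 6 mM and 7.64 ± 0.757 CPM at 4 mM at 4 h (0.56 ± 0.11, adjusted p = 0.00119). Dcxr, a reductase of xylulose, averaged 38.0 ± 8.13 CPM at 6 mM and 25.7 ± 1.12 CPM at 4 mM after washout (0.56 ± 0.10, adjusted p = 0.0340), and Hmgcs1 268 ± 12.3 CPM at 6 mM and 361 ± 16.3 CPM at 4 mM (-0.43 ± 0.07, adjusted p = 0.00593). Without library c of 6 mM after washout 1 higher and 1 lower gene stayed called. The call of either Ces2e or Dcxr was therefore lost. Ces2e and Dcxr were named after their values were seen. Mdm2 averaged 312 ± 20.2 CPM at 6 mM and 284 ± 7.14 CPM at 4 mM after washout (0.14 ± 0.06, adjusted p = 0.375). The difference between the dose step after washout and at 4 h was called in 327 genes (2.47%), 146 in the positive (1.10%) and 181 in the negative direction (1.37%), and in 348 without library c of 6 mM after washout, 226 of them shared. Leaving out library b of 6 mM after washout gave 621, library b of 4 mM after washout 195 and library c of 4 mM after washout 206.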

How the data were processed

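The authors deposited 1 expected count per gene and library, for 32 libraries; 74.3% of the values above 0 were whole numbers, and all were rounded before testing. The aligner, the quantifier and the genome build are not given in the sources used here. Per the labels, libraries were poly-A selected and stranded. Of 49585 entries 97.2% matched a symbol, and those without one held 0.0181% of the counts. Locations were read from GENCODE M21 (GRCm38) and promoters from RefSeq (GRCm38.p6). Genes with enough counts (edgeR filter, minimum count 10, minimum total 15) were kept, scaled with TMM and fitted in 1 model with a coefficient for each of 10 groups and robust estimation (22 residual degrees of freedom). Contrasts were tested with edgeR's quasi-likelihood test and Benjamini-Hochberg adjustment over all 13258 genes. CPM are TMM-scaled, with SD over libraries. Standard errors were computed as the size of the log2 fold change over the root of F, and intervals cover 95%. Single values per library were compared with an exact permutation test. Replicate letters did not pair samples (correlations of deviations -0.01, 0.02 and 0.08).

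Named genes were called, had at least 5 CPM, and did not overlap between the doses: the 15 largest changes in each direction, the 3 largest called genes of each list with 3 or more called members (with no rule on overlap), and 18 fixed genes. Any other gene was chosen after its values were seen. Some genes that this rule or a list would name are not reported here. The members, the 44 gene lists and the tests were chosen with earlier results of these data known. Alternatives were DESeq2, other scaling, no filter, no robust estimation, fewer libraries, a replicate block and each library left out; that without library c of 6 mM after washout was singled out after seeing the data. The computation was tested on simulated data. The tools were edgeR 4.0.16, DESeq2 1.42.0 and limma 3.58.1 in R 4.3.3.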

Additional observations from a re-analysis of the deposited data

Results flagged for a closer look

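Among the 105 named genes, 2 had a library of 4 mM at 4 h far from the other 4, where chance gives such a gap in about 1 in 20 groups. Gtf2h1, of transcription factor TFIIH, had 44.8 CPM in library b and 42.3 to 42.9 CPM in the others. Zfp503 had 11.5 CPM in library c and 14.5 to 15.2 CPM in the others. All 3 libraries of 6 mM lay beyond these values in both genes. For Zfp503, 1 of the 15 largest falls, the rule for named genes required this.

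The dose step differed between the times in 327 genes by the test of the difference itself, which was edgeR's quasi-likelihood test of the step after washout minus the step at 4 h. Among called genes with at least 5 CPM in 1 of the 4 groups, the 3 largest positive differences on the log2 scale were 1.12 in Ccdc18, 1.04 in Pif1 and 1.00 in Gm36958 (adjusted p = 0.0290, 0.000146 and 0.0284). These genes were lower at 6 than at 4 mM at 4 h, and after washout their log2 fold changes were 0.29, 0.06 and 0.16. Under the same limit the 3 largest negative differences were -1.37 in Dact1, -1.24 in Ccl2 and -1.19 in Ccl7 (adjusted p = 0.00754, 0.00151 and 0.0102). Dact1, a Wnt pathway regulator, averaged 15.1 CPM at 6 mM and 7.41 CPM at 4 mM at 4 h, and 1.36 CPM at 6 mM and 1.71 CPM at 4 mM after washout.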

How the results depend on the processing

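The count of 1069 genes at 4 h became 1749 with only libraries collected at 4 h in the fit, 690 with only replicates a to c of 4 mM, and 696 (350 higher, 346 lower) with a replicate block, for which the letters gave no pairing: 1 of 3 libraries of 6 mM correlated best with its own letter. Letters d and e occur at 4 mM at 4 h alone, so the block fitted each of these libraries with its own coefficient. The block thus left them out of the contrast, as did the fit with only replicates a to c. The count at 4 h was 1130 with DESeq2, 1067 with DESeq2 size factors, 769 with no filter, 1089 with no robust estimation and 1414 with the 8 libraries alone. Leaving out 1 library gave 651 to 1720. After washout, 3 calls became 15 with DESeq2, 9 with no filter and 4 with the block, and 1 to 23 with 1 library left out. The difference between times, 327, became 181 with the block and 195 to 621 with 1 library left out. The causes were not tested. Of 98 called named genes 65 were called under every alternative; Fasn, Pms1, Gnl3 and Mt2 lost the call most often. The 98 called genes did not change direction. Uncalled ones did: Plk1 was -0.017 with library totals alone and -0.082 to 0.11 with 1 library left out, Ccnb1 0.0084 with replicates a to c of 4 mM and with the block, and Vegfa -0.087 to 0.0066 with 1 library left out.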

Other observations

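Of genes higher at 6 mM 96.6% were protein coding, of those lower 93.5%, and of all tested 88.1%. The median span of protein-coding genes was 27.9 kb in those higher, 18.6 kb in those lower and 24.4 kb in all tested. These values were not tested.

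Other promoter words gave the following shares. The C/EBP-ATF word TGATGCAA stood in 6 of 35 ATF4 targets (17.1%) and in 0.489% of tested genes. CCAAT stood in 40 of 53 mitotic genes (75.5%) and in 37.4% of tested genes. In called genes of those lists the counts were 2 of 9 and 10 of 15.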
